A study of Homo sapiens with 12 samples.

Results

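The genes described here belong to interferon signaling and to the sensing of double-stranded RNA. They are 47 gene symbols, chosen by name with earlier results of these data known. Both count tables held all 47 of the 47, out of 23064 symbols in all. By role they are 4 interferon receptor chains, 7 kinases and transcription factors of the JAK-STAT and IRF group, 9 sensors of double-stranded RNA and their enzymes, 5 genes of the ISG15 system, 4 IFIT genes, 5 IFI genes, 9 antiviral effectors and 4 other interferon-linked genes. Of several transcripts of a symbol, the one with the most counts was used.

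The cells were CAL-29 and 5637, lines long established from human bladder carcinomas. Both are labelled wild type, and each was transfected with the control siRNA siCtrl or with an siRNA against KMT9α, a histone methyltransferase subunit encoded by N6AMT1, and harvested 3 days later, with 3 libraries for each of the 4 groups. No interferon and no foreign RNA other than the siRNA is named in the labels, and no allele beyond the wild-type genotype. The count tables call the siRNA si270, whereas the text on the RNA-seq names siKMT9α#1. Neither source links these names, and siKMT9α#1 is used here on the assumption that both are the same siRNA. CAL-29 cells were transfected with RNAiMAX and 5637 cells with DharmaFECT 3, each in its own medium and at its own siRNA dose, so cell line, medium, reagent and dose cannot be told apart in any comparison between the lines. The labels do not tie the libraries to separate cultures, so the p-values measure the spread between these libraries, which may be technical.

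Cells detect double-stranded RNA, a by-product of viral replication, with cytoplasmic helicases such as MDA5 and RIG-I and with the endosomal receptor TLR3, and these sensors switch on interferon genes through the factors IRF3 and IRF7. Secreted type I interferon binds IFNAR1 and IFNAR2, the kinases JAK1 and TYK2 are activated, and a complex that holds STAT2 and IRF9 binds the interferon-stimulated response element (ISRE) in the promoters of interferon-stimulated genes. Interferon gamma binds IFNGR1 and IFNGR2 and acts through JAK1 and JAK2 at the gamma-activated site (GAS). Many of the genes induced in this way restrict viruses, and many tumor cell lines keep part of the set expressed without added interferon.

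The promoters of the members show these elements in their letters. The 6 sequences printed here were chosen because the members they belong to carry the main patterns described below: OAS3 and IRF1 were upregulated with siKMT9α#1 in both lines, ISG15 was downregulated in CAL-29 cells, IFI6 and LGALS3BP were downregulated in 5637 cells, and BST2 was expressed in CAL-29 cells and near 0 in 5637 cells. Each is the stretch of 250 bases that ends just before the annotated transcription start in RefSeq (GRCh38.p14), 5′ to 3′ on the strand of the gene, with every match to ISRE or GAS letters in capitals. ISG15 lies at chr1:1013247-1013496 on the plus strand, OAS3 at chr12:112938224-112938473 on the plus strand, LGALS3BP at chr17:78979924-78980173 on the minus strand, IFI6 at chr1:27672193-27672442 on the minus strand, BST2 at chr19:17405631-17405880 on the minus strand and IRF1 at chr5:132490774-132491023 on the minus strand.
ISG15: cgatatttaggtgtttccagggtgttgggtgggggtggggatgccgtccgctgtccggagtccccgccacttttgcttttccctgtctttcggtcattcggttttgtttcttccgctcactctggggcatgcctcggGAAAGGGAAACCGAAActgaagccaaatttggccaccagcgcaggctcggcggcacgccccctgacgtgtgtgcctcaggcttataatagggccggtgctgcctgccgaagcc
OAS3: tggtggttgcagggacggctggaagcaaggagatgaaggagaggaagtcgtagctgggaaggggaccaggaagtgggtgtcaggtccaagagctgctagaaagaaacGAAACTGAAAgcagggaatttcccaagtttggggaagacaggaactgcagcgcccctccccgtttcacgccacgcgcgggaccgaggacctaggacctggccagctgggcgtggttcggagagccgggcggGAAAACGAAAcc
LGALS3BP: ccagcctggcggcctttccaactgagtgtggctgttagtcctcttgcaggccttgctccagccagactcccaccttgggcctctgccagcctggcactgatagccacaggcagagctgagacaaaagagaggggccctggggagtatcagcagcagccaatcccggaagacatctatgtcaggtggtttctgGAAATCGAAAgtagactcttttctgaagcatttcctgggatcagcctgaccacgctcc
IFI6: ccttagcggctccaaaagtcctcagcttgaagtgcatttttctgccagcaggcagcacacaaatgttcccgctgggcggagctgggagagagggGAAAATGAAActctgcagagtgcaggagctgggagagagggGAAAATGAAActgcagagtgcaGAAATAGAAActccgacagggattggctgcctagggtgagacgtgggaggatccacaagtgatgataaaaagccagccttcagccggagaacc
BST2: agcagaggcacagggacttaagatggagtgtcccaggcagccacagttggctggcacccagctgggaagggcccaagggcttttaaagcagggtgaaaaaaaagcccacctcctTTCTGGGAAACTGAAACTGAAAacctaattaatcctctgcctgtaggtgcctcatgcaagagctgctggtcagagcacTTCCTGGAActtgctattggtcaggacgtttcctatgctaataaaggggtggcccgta
IRF1: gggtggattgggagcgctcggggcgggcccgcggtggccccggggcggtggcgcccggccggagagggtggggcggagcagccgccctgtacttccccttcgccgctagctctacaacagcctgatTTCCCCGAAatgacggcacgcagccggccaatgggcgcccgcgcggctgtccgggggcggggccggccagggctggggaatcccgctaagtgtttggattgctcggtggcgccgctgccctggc
ISG15 holds 2 overlapping ISRE matches, OAS3 holds 2 that lie apart, LGALS3BP holds 1 and IFI6 holds 3. BST2 holds 2 overlapping ISRE matches, a GAS match that overlaps only the upstream one of these, and a second GAS match nearer the start. IRF1 holds 1 GAS match and no ISRE match.
The letters searched were TTTC, any 2 bases and TTTC for ISRE and TTCNNNGAA for GAS, on both strands, over windows from 250 bases before to 50 bases after each start. The table of windows held 39 members, some of them with several starts, and did not list IFNAR2, IRF3, IRF7, OAS2, OASL, USP18, IFIT2 and MX2. ISRE letters were found in at least 1 window of 21 of the 39 members and in 25 of their 59 windows (42.4%), against 3.57% of all 35116 windows. GAS letters were found for 8 of the 39 members and in 9 of the 59 windows (15.3%), against 7.66% of all windows, and IFI27, TLR3, MX1 and BST2 held both. Windows of neighbouring starts of 1 gene can overlap, so that 1 match can count in 2 windows. A match is a run of letters and not a bound site.

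**Figure D1:**
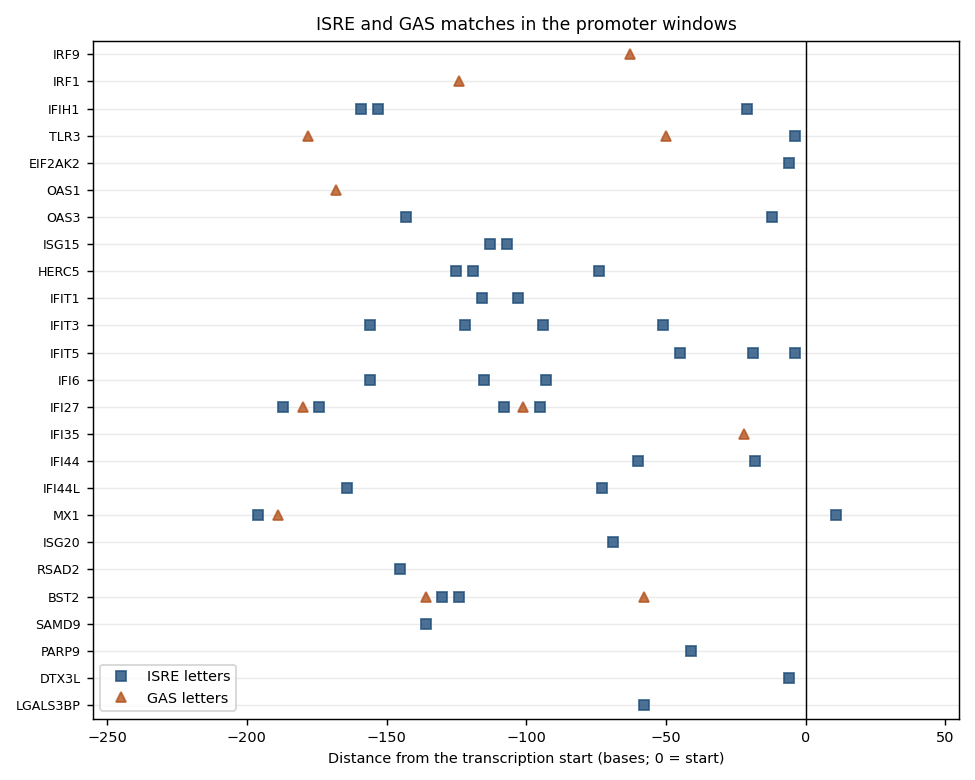
Position of each ISRE match (squares) and GAS match (triangles) in the promoter windows of the 25 members with a match, as the distance in bases of its first base from the transcription start (x axis, 0 is the start; every window of a gene is drawn on its row). All matches but 1 of MX1 begin before the start, and 4 members hold both kinds.

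The total count per library lay between 24479488 and 35148657.5 over the 12 libraries, and N6AMT1 had 11.1, 9.98 and 9.43 CPM with siCtrl and 2.78, 2.89 and 1.96 CPM with siKMT9α#1 in CAL-29 cells and 13.7, 13.4 and 13.5 CPM with siCtrl and 3.83, 2.26 and 2.62 CPM with siKMT9α#1 in 5637 cells (CPM, read counts scaled by TMM to a common library size). N6AMT1 fell in both lines (log2 fold change -1.997 [-1.93], SE 0.15, edgeR adjusted p = 1.33e-10 in CAL-29 cells and log2 fold change -2.23, SE 0.12, edgeR adjusted p = 1.05e-15 in 5637 cells). The epithelial and urothelial marker list was expressed in both lines, with a sum of 12984 to 13703 CPM in CAL-29 and 8979 to 9384 CPM in 5637 siCtrl libraries, and 6317 to 6490 CPM and 6209 to 6429 CPM with siKMT9α#1. Of its 13 genes, 8 fell and 0 rose past p of 1e-06 in CAL-29 cells, and 7 fell and 1 rose in 5637 cells among 11 tested. Over all genes tested, 15% fell and 15% rose in CAL-29 cells, and 17.6% fell and 18% rose in 5637 cells. The 14 immune and endothelial markers summed to between 5.14 and 20.0 CPM per library, CD3D, MS4A1, LILRA4 and CLEC4C had 0 counts in every library, and PTPRC, which all leukocytes carry, had at most 8. Their sum was 8.15 to 10.7 CPM with siCtrl and 18.9 to 20.0 CPM with siKMT9α#1 in CAL-29 cells, mainly from CD68 and CDH5. There CD14 was also higher and VWF lower, neither past 1e-06. In 5637 cells the sum was 5.14 to 5.75 CPM with siCtrl and 5.70 to 6.36 CPM with siKMT9α#1. CDH5 fell in 5637 cells (log2 fold change -4.91, SE 0.55, edgeR adjusted p = 6.08e-09, mean of 20.2 counts), where CD68 was higher without passing 1e-06. The part of these markers in the results was not tested. In bulk RNA, fewer cells that express a gene and less RNA per cell cannot be told apart.

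Values written as a ± b give a log2 fold change, or a log2 difference between responses, and its standard error.

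One library stood apart, for the interferon genes and also more widely. In CAL-29 siCtrl replicate 1, 36 of the 47 members had the highest level of the 3 siCtrl libraries, with a median log2 ratio of 0.19 to the mean of the other two. Over all genes with a mean of at least 50 counts, 35.7% were highest in that library and the median ratio was -0.01. IFI44L was the member with the widest gap, with 15.4, 7.51 and 6.70 CPM in replicates 1, 2 and 3. Log2 values that rest on CAL-29 siCtrl cells are therefore followed, in square brackets, by the same value fitted without this library, and the counts of called genes are given both ways. None of the genes described here lost a call in these comparisons without it. The library was singled out by the levels of the members themselves, so leaving it out lowers the siCtrl mean of most of them. The values without it are therefore no independent check of the calls.

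**Figure D2:**
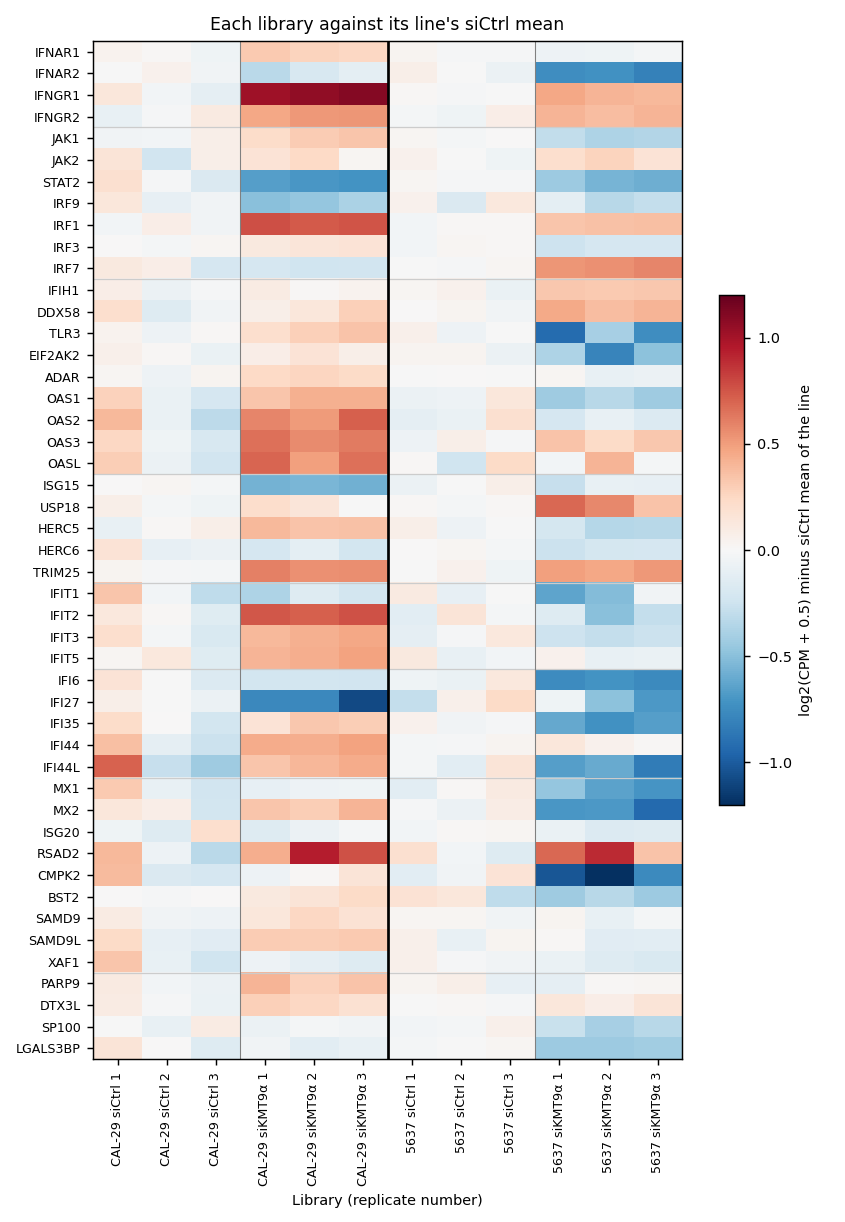
Color gives log2(CPM + 0.5) of each member (rows, in the order of their roles) in each of the 12 libraries (columns) minus the mean of the 3 siCtrl libraries of the same line. The first column, CAL-29 siCtrl replicate 1, is warmer than the other CAL-29 siCtrl columns for 36 of 47 members. The 5637 siKMT9α#1 columns are mostly blue, where the CAL-29 siKMT9α#1 columns are mostly red.

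At baseline, with siCtrl, most members were more abundant in CAL-29 than in 5637 cells. BST2 (tetherin, which holds budding virus at the cell surface), IFI27, OASL and RSAD2 (viperin) were each expressed in CAL-29 cells and close to 0 in 5637 cells. The exceptions include IFNGR2, DDX58 and IRF7, which were more abundant in 5637 cells. For each called member, in this comparison and in both knockdown comparisons, the libraries of the groups did not overlap. Of 47 members tested, 30 were higher and 6 lower in CAL-29 than in 5637 siCtrl cells at an unadjusted p below 1e-06, the threshold of the study, and 11 passed in neither direction. Over all genes tested, 26.6% were higher and 28.1% lower. At least 2-fold higher were 22 of the 47 members, against 16.1% of all genes, or 22 against 16.2% without CAL-29 siCtrl replicate 1. The median log2 fold change of the members was 0.95 and that of all genes 0.01. For 43 members the siCtrl libraries of the lines did not overlap, 34 of them higher and 9 lower in CAL-29 cells, against 85.7% of all genes (42.7% higher and 42.9% lower). At an adjusted p below 0.05, 33 members were higher and 10 lower, against 42.6% and 42.6% of all genes (85.2% together). Without CAL-29 siCtrl replicate 1, 30 were again higher and 6 lower past 1e-06, with a median of 0.87, against 29% and 30.5% of all genes. Those past an adjusted p of 0.05 were then 32 and 10, against 42.1% and 42.6%, and 44 members did not overlap, 34 of them higher, against 44.2% higher and 44.6% lower over all genes. With a single library left out, the call of CMPK2 (between 1.34 and 1.69, p up to 2.77e-06) was lost without 5637 siCtrl replicate 1 or 3. That of IRF7 (between -0.81 and -0.65, p up to 1.55e-06) was lost without 5637 siCtrl replicate 3.

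**Figure D3:**
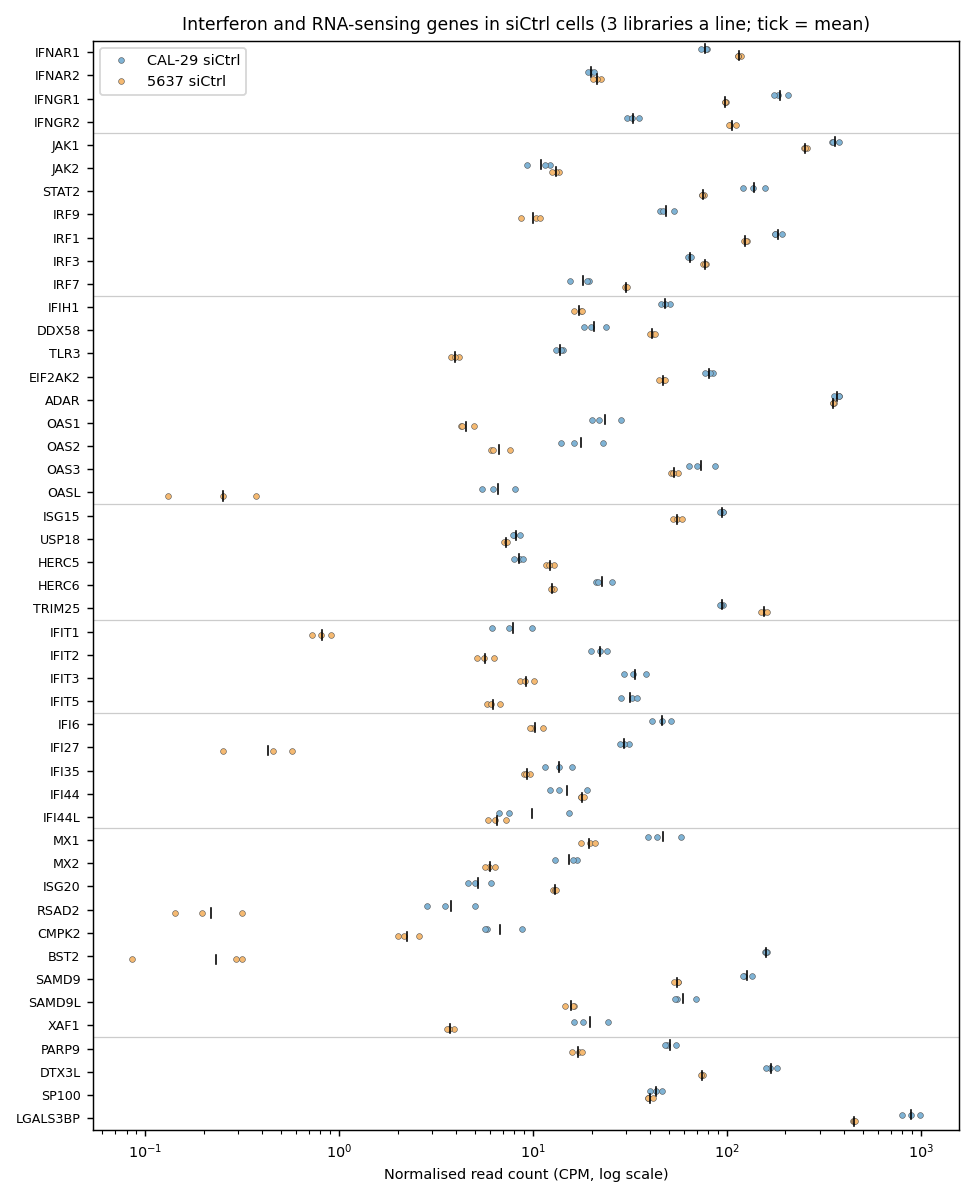
Normalised read counts (CPM, log axis) of the 47 members in the 3 siCtrl libraries of CAL-29 (blue) and of 5637 (orange), with a tick at each mean. The blue points lie to the right for most members, by the widest distance for BST2, IFI27, OASL and RSAD2, and to the left for IFNGR2, DDX58, IRF7, TRIM25, ISG20 and IFNAR1.

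Per length of the Ensembl canonical transcript, the most abundant member was LGALS3BP in both lines, with a mean of 405 CPM per kb in CAL-29 siCtrl cells (range over libraries 362 to 449) and 205 CPM per kb in 5637 siCtrl cells (202 to 208). Next on this scale came BST2 in CAL-29 cells, with 159 CPM per kb (158 to 159.7), and ISG15 in 5637 cells, with 87.0 CPM per kb (82.8 to 91.5). After BST2 came ISG15 in CAL-29 cells, with 148 CPM per kb (145 to 150.1), so that its range lay below that of BST2.

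In CAL-29 cells with knockdown of KMT9α, members were called in both directions, 21.3% of them against 30% of all genes. The log2 fold change was positive for 32 of the 47. IFNGR1, IRF1, IFIT2, OAS3, TRIM25 and IFNGR2 were upregulated, and IFI27, STAT2, ISG15 and IRF9 were downregulated. Of 47 members tested, 6 were upregulated and 4 downregulated past 1e-06, where 15% of all genes were upregulated and 15% downregulated. IFNGR1 was the one member called with at least a 2-fold change with all libraries, and the share of all genes at this rule was not computed. At an edgeR adjusted p (Benjamini-Hochberg) below 0.05, 26 were higher and 8 lower, against 34.3% and 35.2% of all genes (69.5% together). The median log2 fold change of the members was 0.22 and that of all genes -0.02. By role, the median was 0.42 over the 4 IFIT genes, 0.37 over the 4 receptor chains and 0.27 over the 9 sensors, all 9 of which had a positive value. Without siCtrl replicate 1 these medians were 0.48, 0.36 and 0.29, and the 9 values were again positive. The medians of the other roles were lower, at 0.24 [0.37] for the IFI genes and 0.15 [0.22] for the antiviral effectors. They were 0.12 [0.13] for the JAK-STAT and IRF group, 0.11 [0.15] for the ISG15 system and 0.08 [0.12] for the other interferon-linked genes. The siKMT9α#1 and siCtrl libraries did not overlap for 33 members, 25 of them higher and 8 lower, against 72.3% of all genes (35.6% higher and 36.7% lower). Without CAL-29 siCtrl replicate 1, the same 4 genes were downregulated and 20 were upregulated, against 18.8% of all genes that were then upregulated and 18.1% downregulated. Past an adjusted p of 0.05 they were then 29 higher and 6 lower, against 34.1% and 34.5% of all genes, with a median over the members of 0.25. The groups then did not overlap for 40 members, 32 of them higher, against 38.5% higher and 39.6% lower over all genes. The 14 added were IFNAR1, JAK1, ADAR, OAS1, OAS2, OASL, IFIT3, IFIT5, IFI44, IFI44L, RSAD2, SAMD9L, PARP9 and DTX3L, with log2 fold changes from 0.24 (ADAR) to 1.01 (RSAD2), and RSAD2 then also passed 2-fold. Some calls did not hold in every fit with a single library left out. That of IFNGR2 (between 0.45 and 0.55, p up to 4.67e-06) was lost without siCtrl replicate 2 or siKMT9α#1 replicate 2 or 3. That of OAS3 (between 0.51 and 0.73, p up to 8.36e-06) was lost without siCtrl replicate 2 or siKMT9α#1 replicate 1 or 3. That of IRF9 (between -0.52 and -0.40, p up to 1.36e-05) was lost without siCtrl replicate 2 or any siKMT9α#1 library. Scaled by total counts, 10 were upregulated, and IRF9 did not pass, while the upward share of all calls went from 49.8% of 4402 to 59.4% of 4633.

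In 5637 cells, more members were downregulated than upregulated. MX2, IFI6, IFNAR2, IFI44L, IFI35, MX1, EIF2AK2, STAT2, LGALS3BP, JAK1 and SP100 were downregulated, and IRF7, TRIM25, IFNGR1, DDX58, IFNGR2, IRF1 and OAS3 were upregulated. Of 45 members tested, 7 were upregulated and 11 downregulated past 1e-06, against 18% and 17.6% of all genes. OASL and BST2 had too few counts in 5637 cells to enter the test. At an adjusted p below 0.05, 12 were higher and 21 lower, against 35.1% and 35.6% of all genes (70.7% together). The median log2 fold change was -0.18, and -0.01 over all genes. By role, the median was -0.79 for the IFI genes, -0.31 for the IFIT genes and -0.22 for the JAK-STAT and IRF group. It was -0.18 for the other interferon-linked genes, -0.16 for the ISG15 system and -0.15 for the antiviral effectors. The sensors had -0.11 and the receptor chains 0.17. The libraries did not overlap for 35 members, 12 of them higher and 23 lower, against 72.4% of all genes (35.8% higher and 36.6% lower). No called member changed by 2-fold, and the share of all genes that did was not computed. Without siCtrl replicate 1, siKMT9α#1 replicate 2 or siKMT9α#1 replicate 3, 7 were downregulated in place of 11. The call of IFI44L (between -0.85 and -0.69, p up to 2.87e-05) was kept without siCtrl replicate 2 and lost without any other library. The calls of MX2 (between -0.91 and -0.77, p up to 9.25e-06) and SP100 (between -0.37 and -0.30, p up to 2.15e-05) were lost without siCtrl replicate 1 or 3 or siKMT9α#1 replicate 2 or 3. That of IFI35 (between -0.74 and -0.68, p up to 2.02e-06) was lost without siCtrl replicate 1 or siKMT9α#1 replicate 2 or 3, and that of OAS3 (between 0.27 and 0.34, p up to 1.36e-05) without replicate 1 or 3 of either group. In a joint model of all 12 libraries, IFI44L, OAS3, MX1 and SP100 did not pass. OAS3 and IFI44L also did not pass with a filter of at least 10 counts in every library, nor OAS3 with scaling by total counts.

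Both lines shared the direction past 1e-06 for 6 members, where 30% of all genes were called in CAL-29 and 35.6% in 5637 cells. The share of all genes called in both lines was not computed for either threshold, so these counts are not set apart from all genes. IFNGR1, IFNGR2, IRF1, OAS3 and TRIM25 were upregulated in both, STAT2 was downregulated in both, and no member was called in opposite directions. At an adjusted p below 0.05, JAK1, IRF3, TLR3, OAS1, HERC5, IFIT2, IFIT3, IFI35 and MX2 were higher in CAL-29 and lower in 5637 cells, and IRF7 the reverse. The 2 lines have separate siCtrl libraries.

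**Figure D4:**
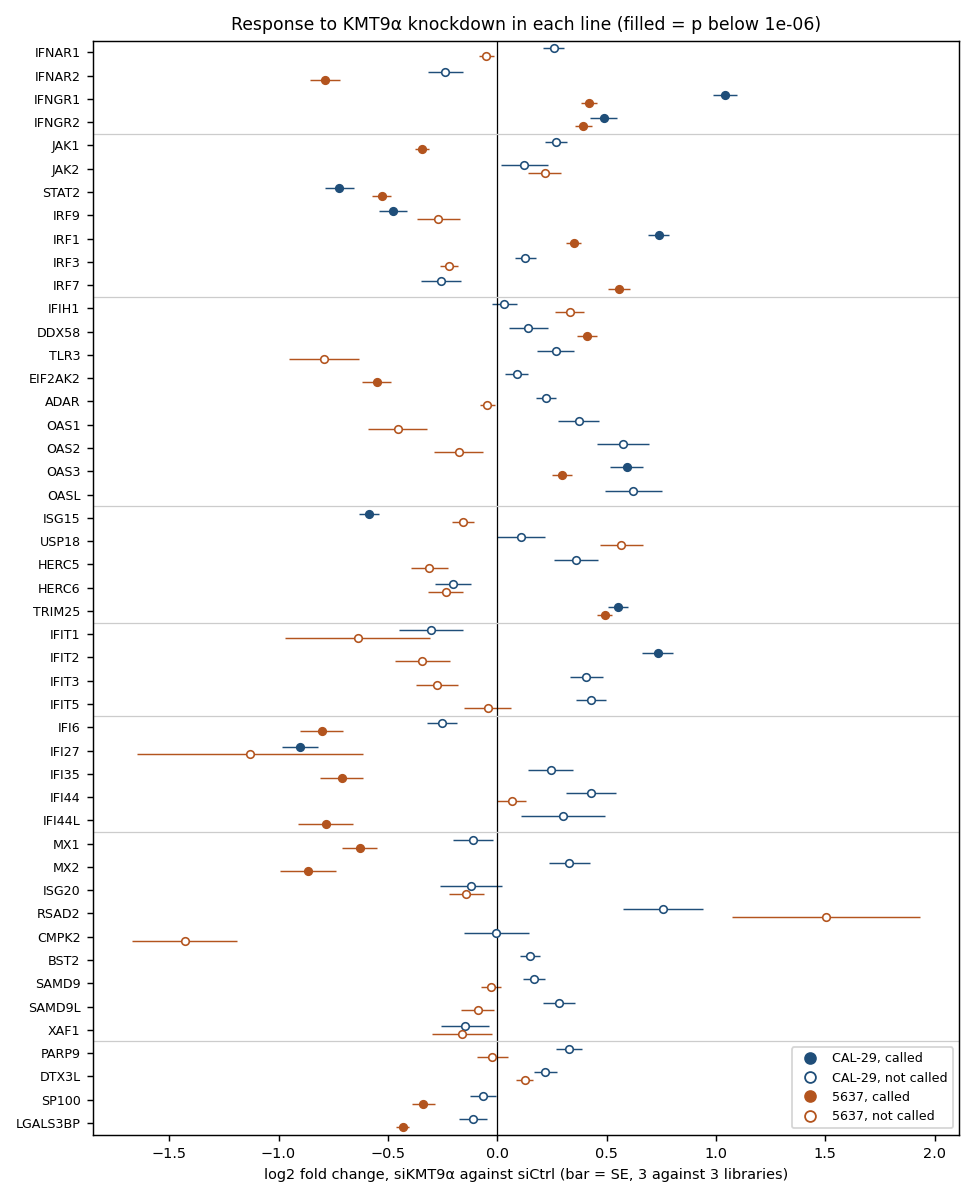
Log2 fold change of siKMT9α#1 against siCtrl (x axis, bar is the standard error) for each member in CAL-29 (blue) and 5637 (brown) cells, filled where p was below 1e-06. IFNGR1, IFNGR2, IRF1, OAS3 and TRIM25 lie right of 0 in both lines with filled points, STAT2 lies left in both, and MX2, IFI35, TLR3 and IFIT2 lie on opposite sides.

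The response itself was compared between the lines with the interaction of cell line and siRNA over all 12 libraries. A positive difference means that the log2 fold change was larger in CAL-29 than in 5637 cells. MX2, IFIT2, TLR3, IFI35, EIF2AK2, IFNGR1, JAK1 and IRF1 passed with a positive difference and IRF7 with a negative one. Of 47 members tested, 8 differed upward and 1 downward past 1e-06, against 8.62% and 7.11% of all genes. At an adjusted p below 0.05, 29 were positive and 5 negative, against 28.5% and 21.9% of all genes (50.4% together). The median difference over the members was 0.35 and that over all genes 0.04. With scaling by total counts, the median over all genes was 0.16, 15 members differed upward, and the upward share of all calls went from 54.8% to 72.4%. Without CAL-29 siCtrl replicate 1, 21 members differed upward and 1 downward, against 9.85% and 7.99% of all genes, with a median difference of 0.43. Past an adjusted p of 0.05 they were then 30 and 4, against 28% and 21.2%. The 13 added were IFNAR1, IRF3, ADAR, OAS1, OAS2, OAS3, IFIT3, IFI6, IFI44L, MX1, CMPK2, SAMD9L and LGALS3BP. With 1 library left out, the call of TLR3 (between 0.95 and 1.27, p up to 1.17e-05) was lost in 10 of 12 cases and kept without CAL-29 siCtrl replicate 1 or 5637 siKMT9α#1 replicate 2. That of IFI35 (between 0.87 and 1.09, p up to 2.48e-06) was lost without replicate 2 of CAL-29 siCtrl, replicate 2 or 3 of CAL-29 siKMT9α#1, replicate 1 or 3 of 5637 siCtrl, or replicate 2 or 3 of 5637 siKMT9α#1. That of IRF1 (between 0.38 and 0.45, p up to 1.01e-06) was lost without 5637 siCtrl replicate 2.

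IFNGR1 had the largest rise of the members called in CAL-29 cells. IFNGR1, the ligand-binding chain of the interferon gamma receptor (chr6:137518620-137540586, GRCh37), had 206, 184 and 174 CPM with siCtrl and 379, 392 and 404 CPM with siKMT9α#1 in CAL-29 cells (log2 fold change 1.04 [1.12], SE 0.057, edgeR adjusted p = 1.1e-12). In 5637 cells it had 99.1, 97.1 and 97.6 CPM with siCtrl and 135, 129.96 and 128 CPM with siKMT9α#1 (log2 fold change 0.42, SE 0.036, edgeR adjusted p = 1.83e-11). All siKMT9α#1 libraries of a line lay above its siCtrl libraries, and the rise was larger in CAL-29 cells (log2 difference of the responses 0.64 ± 0.068 [0.71], edgeR adjusted p = 5.27e-09). At baseline IFNGR1 was higher in CAL-29 cells (log2 fold change 0.95 [0.87], SE 0.056, edgeR adjusted p = 7.15e-12).

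IFNGR2, the partner chain (chr21:34775719-34851655), had 30.7, 32.2 and 35.1 CPM with siCtrl and 45.1, 47.0 and 47.2 CPM with siKMT9α#1 in CAL-29 cells (log2 fold change 0.49 [0.45], SE 0.061, edgeR adjusted p = 5.11e-07) and 104, 102 and 111 CPM with siCtrl and 140.4, 137 and 140.3 CPM with siKMT9α#1 in 5637 cells (log2 fold change 0.39, SE 0.037, edgeR adjusted p = 1.99e-10). It rose in both lines (log2 difference of the responses 0.11 ± 0.07 [0.069], edgeR adjusted p = 0.201, which did not pass 1e-06), and it was 3.22-fold lower in CAL-29 siCtrl cells (log2 fold change -1.69 [-1.65], SE 0.058, edgeR adjusted p = 1.8e-15). The chains of this receptor thus had opposite orders between the lines. IFNAR1, a chain of the type I interferon receptor (chr21:34696692-34732170), had 78.8, 77.5 and 73.7 CPM with siCtrl and 95.2, 92.3 and 91.0 CPM with siKMT9α#1 in CAL-29 cells, with groups that did not overlap but an unadjusted p above 1e-06 (log2 fold change 0.26 [0.28], SE 0.049, edgeR adjusted p = 8.59e-05), and 119, 114 and 114 CPM with siCtrl and 111, 112 and 114 CPM with siKMT9α#1 in 5637 cells (log2 fold change -0.05, SE 0.035, edgeR adjusted p = 0.207). IFNAR2, its partner (chr21:34577587-34637980), had 19.8, 20.5 and 19.2 CPM with siCtrl and 15.7, 17.3 and 18.2 CPM with siKMT9α#1 in CAL-29 cells (log2 fold change -0.24 [-0.23], SE 0.08, edgeR adjusted p = 0.0125) and fell in 5637 cells, with 22.4, 21.3 and 20.4 CPM with siCtrl and 12.6, 12.7 and 11.9 CPM with siKMT9α#1 (log2 fold change -0.79, SE 0.07, edgeR adjusted p = 5.52e-11). On the exons of IFNAR2, 44% of the bases lie under IL10RB-DT on the opposite strand and 49.1% are shared with the readthrough gene IFNAR2-IL10RB, so its counts cannot be assigned to 1 gene with certainty.

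Among kinases and transcription factors, STAT2 and IRF9, members of the complex that binds ISRE, fell with siKMT9α#1, STAT2 in both lines and IRF9 in CAL-29 cells, and IRF1 rose. STAT2 (chr12:56735381-56753987) had 157, 136 and 121 CPM with siCtrl and 86.3, 84.3 and 83.4 CPM with siKMT9α#1 in CAL-29 cells (log2 fold change -0.72 [-0.62], SE 0.067, edgeR adjusted p = 5.5e-09) and 76.1, 74.2 and 74.3 CPM with siCtrl and 55.4, 50.8 and 49.9 CPM with siKMT9α#1 in 5637 cells (log2 fold change -0.53, SE 0.044, edgeR adjusted p = 1.32e-11). It fell in both lines. IRF9 (chr14:24630443-24637252) had 53.4, 45.3 and 46.9 CPM with siCtrl and 34.0, 34.9 and 37.1 CPM with siKMT9α#1 in CAL-29 cells (log2 fold change -0.48 [-0.40], SE 0.066, edgeR adjusted p = 1.91e-06), where it fell, and 10.3, 8.70 and 10.9 CPM with siCtrl and 9.07, 7.76 and 8.05 CPM with siKMT9α#1 in 5637 cells, where the groups overlapped (log2 fold change -0.27, SE 0.099, edgeR adjusted p = 0.017). A second gene model covers 93.1% of the exon bases of IRF9 on the same strand, so that its counts are uncertain.

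IRF1, a transcription factor induced by interferon gamma (chr5:131776132-131844411), had 178, 193 and 177 CPM with siCtrl and 313, 304 and 307 CPM with siKMT9α#1 in CAL-29 cells (log2 fold change 0.74 [0.72], SE 0.048, edgeR adjusted p = 2.03e-11) and 122, 126 and 126 CPM with siCtrl and 156, 159 and 160.3 CPM with siKMT9α#1 in 5637 cells (log2 fold change 0.35, SE 0.034, edgeR adjusted p = 3.35e-10). It rose in both, by more in CAL-29 cells (log2 difference 0.40 ± 0.057 [0.39], edgeR adjusted p = 9.49e-07). Genes on the other strand overlap 16.3% of its exon bases. IRF7, the amplifier of type I interferon induction (chr11:612553-615983), differed between the lines in its response. It had 19.5, 19.0 and 15.5 CPM with siCtrl and 15.5, 15.03 and 15.1 CPM with siKMT9α#1 in CAL-29 cells (log2 fold change -0.26 [-0.19], SE 0.091, edgeR adjusted p = 0.0165) and 30.1, 29.8 and 30.6 CPM with siCtrl and 43.7, 44.2 and 45.4 CPM with siKMT9α#1 in 5637 cells (log2 fold change 0.56, SE 0.049, edgeR adjusted p = 4.44e-11), with a log2 difference of -0.80 ± 0.097 [-0.73] between the responses (edgeR adjusted p = 7.17e-08). Only the rise in 5637 cells passed 1e-06. JAK1, a kinase shared by all interferon receptors (chr1:65298906-65533437), had 349.8, 352 and 377 CPM with siCtrl and 419, 445 and 453 CPM with siKMT9α#1 in CAL-29 cells (log2 fold change 0.27 [0.25], SE 0.049, edgeR adjusted p = 6.36e-05) and 258, 248 and 253 CPM with siCtrl and 206, 195 and 198 CPM with siKMT9α#1 in 5637 cells, where it fell (log2 fold change -0.34, SE 0.033, edgeR adjusted p = 2.13e-10). Its responses differed by 0.63 ± 0.06 [0.61] on the log2 scale (edgeR adjusted p = 5.69e-10). JAK2, the kinase of the interferon gamma receptor, and IRF3, the factor that sensors activate, passed 1e-06 in none of the 4 comparisons with all libraries. The log2 fold changes of JAK2 were 0.12 [0.21] in CAL-29 and 0.22 in 5637 cells, and those of IRF3 were 0.13 [0.13] and -0.22.

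Of the sensors, OAS3 rose in both lines, DDX58 rose and EIF2AK2 fell in 5637 cells, and the others were not called in a line with all libraries. OAS3, which makes 2′-5′-linked oligoadenylates on double-stranded RNA (chr12:113375856-113414265), had 86.3, 69.9 and 63.4 CPM with siCtrl and 115, 108 and 112 CPM with siKMT9α#1 in CAL-29 cells (log2 fold change 0.59 [0.73], SE 0.075, edgeR adjusted p = 6.05e-07). In 5637 cells it had 51.1, 56.1 and 52.9 CPM with siCtrl and 67.7, 62.5 and 66.8 CPM with siKMT9α#1 (log2 fold change 0.30, SE 0.046, edgeR adjusted p = 1.56e-06). DDX58 encodes RIG-I, the sensor of RNA with 5′ triphosphate ends (chr9:32455300-32526206), and was 1.99-fold lower in CAL-29 than in 5637 siCtrl cells (log2 fold change -0.99 [-1.11], SE 0.077, edgeR adjusted p = 4.26e-10). It had 23.7, 18.4 and 19.9 CPM with siCtrl and 21.6, 22.6 and 25.1 CPM with siKMT9α#1 in CAL-29 cells, where the groups overlapped (log2 fold change 0.14 [0.25], SE 0.09, edgeR adjusted p = 0.166), and 41.3, 42.3 and 40.0 CPM with siCtrl and 56.5, 53.3 and 54.7 CPM with siKMT9α#1 in 5637 cells (log2 fold change 0.41, SE 0.046, edgeR adjusted p = 5.3e-09). EIF2AK2 encodes PKR, the kinase that halts translation on double-stranded RNA (chr2:37326353-37384665). It had 84.8, 82.1 and 76.7 CPM with siCtrl and 85.8, 90.9 and 85.4 CPM with siKMT9α#1 in CAL-29 cells, with groups that nearly touched and that overlapped when the CAL-29 libraries were scaled alone (log2 fold change 0.089 [0.13], SE 0.052, edgeR adjusted p = 0.131), and fell in 5637 cells, with 47.5, 47.7 and 44.4 CPM with siCtrl and 35.9, 26.7 and 32.8 CPM with siKMT9α#1 (log2 fold change -0.55, SE 0.067, edgeR adjusted p = 2.22e-08), although with DESeq2 it did not pass there. The difference between the responses was 0.66 ± 0.092 [0.69] (edgeR adjusted p = 8.19e-07).

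TLR3, the endosomal sensor (chr4:186990065-187009227), had 14.2, 13.2 and 13.9 CPM with siCtrl and 15.8, 16.9 and 17.6 CPM with siKMT9α#1 in CAL-29 cells (log2 fold change 0.27 [0.29], SE 0.084, edgeR adjusted p = 0.00805) and 4.14, 3.76 and 3.95 CPM with siCtrl and 1.84, 2.86 and 2.15 CPM with siKMT9α#1 in 5637 cells (log2 fold change -0.79, SE 0.16, edgeR adjusted p = 7.27e-05). Neither change passed 1e-06, but their difference did, at 1.08 ± 0.17 [1.10] (edgeR adjusted p = 5.67e-06). It did not pass with the size factors of DESeq2 (unadjusted p of 1.18e-06) or with a filter of at least 10 counts in every library (1.63e-06). The remaining sensors were not called for knockdown with all libraries. IFIH1, which encodes MDA5, had 50.8, 45.8 and 47.6 CPM in the CAL-29 siCtrl libraries and 17.6, 17.9 and 16.3 CPM in the 5637 siCtrl libraries (log2 fold change 1.49 [1.44], SE 0.065, edgeR adjusted p = 6.16e-14), and its response was 0.032 ± 0.057 [0.078] in CAL-29 and 0.33 ± 0.065 in 5637 cells. OAS1 had 28.3, 21.9 and 20.2 CPM in the CAL-29 siCtrl libraries and 4.26, 4.29 and 4.98 CPM in the 5637 siCtrl libraries (log2 fold change 2.38 [2.22], SE 0.12, edgeR adjusted p = 1.06e-12), and OAS2 had 22.8, 16.3 and 13.8 CPM in the CAL-29 siCtrl libraries and 6.08, 6.22 and 7.61 CPM in the 5637 siCtrl libraries (log2 fold change 1.41 [1.18], SE 0.15, edgeR adjusted p = 4.22e-08). Their log2 fold changes with siKMT9α#1 were 0.37 [0.53] and 0.57 [0.80] in CAL-29 cells, where both passed 1e-06 without siCtrl replicate 1. OASL, a relative of the OAS enzymes without their activity, had 8.08, 6.17 and 5.45 CPM in the CAL-29 siCtrl libraries and 0.251, 0.131 and 0.372 CPM in the 5637 siCtrl libraries (log2 fold change 4.66 [4.48], SE 0.27, edgeR adjusted p = 5.54e-12). It had 8, 4 and 13 counts in the 5637 siCtrl libraries. Its response in CAL-29 cells was 0.62 ± 0.13 [0.80]. ADAR, which edits adenosine in double-stranded RNA, was called in none of the 4 comparisons with all libraries, with log2 fold changes of 0.22 [0.24] in CAL-29 and -0.045 in 5637 cells.

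ISG15, a ubiquitin-like protein joined to other proteins after interferon, fell in CAL-29 cells. It had 94.8, 95.6 and 92.5 CPM with siCtrl and 63.4, 64.4 and 63.0 CPM with siKMT9α#1 there (log2 fold change -0.59 [-0.58], SE 0.047, edgeR adjusted p = 6.32e-10), and 52.7, 55.2 and 58.3 CPM with siCtrl and 45.6, 52.0 and 51.5 CPM with siKMT9α#1 in 5637 cells, where it did not pass 1e-06 (log2 fold change -0.16, SE 0.051, edgeR adjusted p = 0.00758). TRIM25, a ubiquitin ligase that acts on RIG-I, rose in both lines. It had 95.8, 93.1 and 92.4 CPM with siCtrl and 143, 137 and 138 CPM with siKMT9α#1 in CAL-29 cells (log2 fold change 0.55 [0.57], SE 0.046, edgeR adjusted p = 9.87e-10) and 154, 160.0 and 149.6 CPM with siCtrl and 218, 213 and 222 CPM with siKMT9α#1 in 5637 cells (log2 fold change 0.49, SE 0.034, edgeR adjusted p = 2.36e-13), and the log2 difference between these responses was 0.078 ± 0.056 [0.096] (edgeR adjusted p = 0.259). At baseline, ISG15 and TRIM25 differed between the lines in opposite directions. The log2 fold change of CAL-29 against 5637 was 0.77 ± 0.051 [0.76] for ISG15 and -0.72 ± 0.046 [-0.74] for TRIM25. HERC6 had 25.5, 21.1 and 21.5 CPM in the CAL-29 siCtrl libraries and 12.6, 12.8 and 12.4 CPM in the 5637 siCtrl libraries (log2 fold change 0.86 [0.76], SE 0.084, edgeR adjusted p = 1.49e-08) and fold changes of -0.20 ± 0.082 [-0.11] and -0.23 ± 0.08 on the log2 scale with siKMT9α#1 in CAL-29 and 5637 cells. HERC5, the ligase that attaches ISG15, and USP18, the protease that removes it, were called in none of the 4 comparisons. The log2 fold change of HERC5 was 0.36 ± 0.10 [0.32] in CAL-29 and -0.31 ± 0.084 in 5637 cells, and that of USP18 0.11 ± 0.11 [0.15] and 0.57 ± 0.099.

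The IFIT proteins bind viral RNA and block its translation, and their 4 genes lie side by side on chromosome 10 of GRCh37 from 91043451 to 91181362. All 4 were higher in CAL-29 than in 5637 siCtrl cells. IFIT1 had 9.82, 7.54 and 6.15 CPM in the CAL-29 siCtrl libraries and 0.909, 0.720 and 0.801 CPM in the 5637 siCtrl libraries (log2 fold change 3.27 [3.07], SE 0.21, edgeR adjusted p = 2.26e-11), IFIT3 had 38.3, 32.7 and 29.2 CPM in the CAL-29 siCtrl libraries and 8.53, 9.09 and 10.1 CPM in the 5637 siCtrl libraries (log2 fold change 1.86 [1.74], SE 0.097, edgeR adjusted p = 1.09e-12) and IFIT5 had 32.2, 34.4 and 28.5 CPM in the CAL-29 siCtrl libraries and 6.77, 5.79 and 6.03 CPM in the 5637 siCtrl libraries (log2 fold change 2.36 [2.34], SE 0.092, edgeR adjusted p = 1.06e-14). IFIT2 had 24.0, 22.3 and 19.9 CPM with siCtrl and 37.1, 36.5 and 37.7 CPM with siKMT9α#1 in CAL-29 cells, where it rose (log2 fold change 0.73 [0.80], SE 0.071, edgeR adjusted p = 1.05e-08). In 5637 cells it had 5.11, 6.31 and 5.55 CPM with siCtrl and 5.02, 3.84 and 4.53 CPM with siKMT9α#1 (log2 fold change -0.34, SE 0.13, edgeR adjusted p = 0.0176), and the log2 difference between the responses was 1.09 ± 0.14 [1.16] (edgeR adjusted p = 1.59e-07). The response of IFIT3 was 0.41 ± 0.075 [0.52] in CAL-29 and -0.27 ± 0.096 in 5637 cells, that of IFIT5 0.43 ± 0.067 [0.44] and -0.044 ± 0.11, and that of IFIT1 -0.30 ± 0.15 [-0.11] and -0.64 ± 0.33. Without CAL-29 siCtrl replicate 1, IFIT3 and IFIT5 passed 1e-06 in CAL-29 cells.

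The IFI genes differed among themselves. IFI27 (chr14:94571182-94583032) fell in CAL-29 cells, with 31.0, 29.3 and 28.1 CPM with siCtrl and 16.999, 17.04 and 13.7 CPM with siKMT9α#1 (log2 fold change -0.90 [-0.86], SE 0.084, edgeR adjusted p = 5.96e-09), and was near 0 in 5637 cells, with 8, 14 and 20 counts in the siCtrl and 10, 4 and 2 counts in the siKMT9α#1 libraries. IFI6, a mitochondrial and endoplasmic reticulum protein with antiviral activity (chr1:27992575-27998723), had 51.6, 45.9 and 40.9 CPM with siCtrl and 39.4, 39.3 and 39.0 CPM with siKMT9α#1 in CAL-29 cells (log2 fold change -0.25 [-0.16], SE 0.07, edgeR adjusted p = 0.00319) and fell in 5637 cells, with 9.88, 9.68 and 11.3 CPM with siCtrl and 5.86, 6.03 and 5.84 CPM with siKMT9α#1 (log2 fold change -0.80, SE 0.099, edgeR adjusted p = 3.18e-08). At baseline IFI6 was 4.50-fold higher in CAL-29 cells (log2 fold change 2.17 [2.07], SE 0.088, edgeR adjusted p = 2.04e-14). IFI35 (chr17:41158757-41166473) had 15.8, 13.6 and 11.5 CPM with siCtrl and 15.3, 17.04 and 16.7 CPM with siKMT9α#1 in CAL-29 cells, with groups that overlapped (log2 fold change 0.24 [0.37], SE 0.10, edgeR adjusted p = 0.0388), and 9.66, 8.996 and 9.21 CPM with siCtrl and 5.90, 5.42 and 5.70 CPM with siKMT9α#1 in 5637 cells, where it fell (log2 fold change -0.71, SE 0.099, edgeR adjusted p = 2.76e-07). Its responses differed by 0.97 ± 0.15 [1.09] on the log2 scale (edgeR adjusted p = 2.12e-06). IFI44L (chr1:79085587-79111830) had 6.33, 5.86 and 7.26 CPM with siCtrl and 3.91, 4.07 and 3.39 CPM with siKMT9α#1 in 5637 cells, where it fell (log2 fold change -0.79, SE 0.12, edgeR adjusted p = 2.43e-06), although a joint model of all 12 libraries gave an unadjusted p of 0.000848. In CAL-29 cells it had 15.4, 7.51 and 6.70 CPM with siCtrl and 11.7, 12.3 and 12.7 CPM with siKMT9α#1, so that the siCtrl range held the siKMT9α#1 values (log2 fold change 0.30 [0.77], SE 0.19, edgeR adjusted p = 0.172). Without siCtrl replicate 1 it passed 1e-06 there (edgeR adjusted p = 1.07e-07). Its neighbour IFI44 was called in none of the 4 comparisons with all libraries, with log2 fold changes of 0.43 ± 0.11 [0.64] and 0.067 ± 0.066.

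Of the antiviral effectors, MX1 and MX2 fell in 5637 cells, and none was called in CAL-29 cells with all libraries. MX1 and MX2 encode related GTPases that trap viral particles and lie next to each other on chromosome 21. MX2 (chr21:42733926-42781320) had 16.8, 16.1 and 13.0 CPM with siCtrl and 19.3, 18.8 and 20.3 CPM with siKMT9α#1 in CAL-29 cells (log2 fold change 0.33 [0.40], SE 0.092, edgeR adjusted p = 0.00343) and 5.90, 5.63 and 6.35 CPM with siCtrl and 3.48, 3.50 and 2.89 CPM with siKMT9α#1 in 5637 cells (log2 fold change -0.86, SE 0.13, edgeR adjusted p = 7.28e-07). The groups did not overlap in either line and pointed opposite ways, with a log2 difference between the responses of 1.21 ± 0.16 [1.28] (edgeR adjusted p = 2.22e-07). MX1 (chr21:42791947-42841998) had 57.7, 43.4 and 39.3 CPM with siCtrl and 43.0, 44.3 and 44.5 CPM with siKMT9α#1 in CAL-29 cells, with overlap (log2 fold change -0.11 [0.071], SE 0.093, edgeR adjusted p = 0.294), and 17.7, 19.6 and 21.0 CPM with siCtrl and 13.9, 12.2 and 11.7 CPM with siKMT9α#1 in 5637 cells (log2 fold change -0.63, SE 0.08, edgeR adjusted p = 5.45e-08). At baseline both were higher in CAL-29 cells, by 1.27 ± 0.11 [1.09] for MX1 and 1.36 ± 0.11 [1.28] for MX2 on the log2 scale.

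BST2 (chr19:17513748-17516439) showed the largest difference between the lines of the 47 members. It had 159.8, 158 and 159.6 CPM in the CAL-29 siCtrl libraries and 0.314, 0.294 and 0.0858 CPM in the 5637 siCtrl libraries (log2 fold change 9.44 [9.43], SE 0.12, edgeR adjusted p = 1.33e-21). In counts, the 5637 siCtrl libraries held 10, 9 and 3 reads and the 5637 siKMT9α#1 libraries 1, 2 and 1. In CAL-29 cells with siKMT9α#1 it had 172, 177 and 187 CPM (log2 fold change 0.15 [0.16], SE 0.046, edgeR adjusted p = 0.00675), which did not pass 1e-06.

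RSAD2 had 4.99, 3.51 and 2.84 CPM in the CAL-29 siCtrl libraries and 0.314, 0.196 and 0.143 CPM in the 5637 siCtrl libraries (log2 fold change 4.106 [3.85], SE 0.33, edgeR adjusted p = 6.44e-10), and its response was 0.76 ± 0.18 [1.01] in CAL-29 and 1.504 ± 0.43 in 5637 cells, where the siCtrl libraries held 10, 6 and 5 counts. CMPK2, a nucleotide kinase encoded head to head with RSAD2, had 8.71, 5.79 and 5.67 CPM in the CAL-29 siCtrl libraries and 2.01, 2.16 and 2.57 CPM in the 5637 siCtrl libraries (log2 fold change 1.58 [1.34], SE 0.18, edgeR adjusted p = 1.56e-07), and its response was -0.0042 ± 0.15 [0.23] in CAL-29 and -1.43 ± 0.24 in 5637 cells. These neighbours on chromosome 2 thus had log2 fold changes of opposite sign in 5637 cells, each past an adjusted p of 0.05 and neither past 1e-06. RSAD2 exons on the other strand overlap 11.3% of the exon bases of CMPK2.

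SAMD9 and SAMD9L, paired antiviral genes on chromosome 7, were higher in CAL-29 siCtrl cells. SAMD9 had 135, 123 and 121 CPM in the CAL-29 siCtrl libraries and 55.7, 55.9 and 53.2 CPM in the 5637 siCtrl libraries (log2 fold change 1.21 [1.15], SE 0.052, edgeR adjusted p = 5.24e-14) and SAMD9L had 69.5, 55.2 and 53.8 CPM in the CAL-29 siCtrl libraries and 16.2, 14.6 and 16.0 CPM in the 5637 siCtrl libraries (log2 fold change 1.94 [1.80], SE 0.087, edgeR adjusted p = 9.78e-14). XAF1, a proapoptotic gene, had 24.4, 18.1 and 16.2 CPM in the CAL-29 siCtrl libraries and 3.89, 3.66 and 3.603 CPM in the 5637 siCtrl libraries (log2 fold change 2.40 [2.20], SE 0.14, edgeR adjusted p = 5.67e-12), with 74.2% of its exon bases under a gene on the other strand. ISG20, an exonuclease that degrades RNA, was the effector that was lower in CAL-29 cells, with 4.99, 4.61 and 6.04 CPM in the CAL-29 siCtrl libraries and 12.6, 13.0 and 13.2 CPM in the 5637 siCtrl libraries (log2 fold change -1.30 [-1.28], SE 0.11, edgeR adjusted p = 1.97e-09). The responses of these 4 genes to siKMT9α#1 lay between -0.15 [0.045] (XAF1) and 0.28 [0.41] (SAMD9L) in CAL-29 cells and between -0.16 (XAF1) and -0.029 (SAMD9) in 5637 cells, and none passed 1e-06 with all libraries. SAMD9L passed without CAL-29 siCtrl replicate 1.

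LGALS3BP and SP100 were the other interferon-linked genes that changed. LGALS3BP, a secreted glycoprotein (chr17:76967320-76976029), had 989, 891 and 796 CPM with siCtrl and 863, 814 and 834 CPM with siKMT9α#1 in CAL-29 cells, with overlap (log2 fold change -0.11 [-0.025], SE 0.063, edgeR adjusted p = 0.123), and 444, 450.4 and 459 CPM with siCtrl and 333, 333 and 339 CPM with siKMT9α#1 in 5637 cells, where it fell (log2 fold change -0.43, SE 0.03, edgeR adjusted p = 2.98e-13). SP100, a protein of nuclear bodies (chr2:231280657-231410321), had 42.9, 40.3 and 46.0 CPM with siCtrl and 40.9, 42.3 and 41.7 CPM with siKMT9α#1 in CAL-29 cells, with overlap (log2 fold change -0.066 [-0.065], SE 0.06, edgeR adjusted p = 0.332), and 38.9, 39.3 and 41.7 CPM with siCtrl and 33.2, 30.2 and 31.6 CPM with siKMT9α#1 in 5637 cells, where it fell (log2 fold change -0.34, SE 0.053, edgeR adjusted p = 1.83e-06). PARP9 and DTX3L, which form a complex and share a promoter region on chromosome 3, were higher in CAL-29 siCtrl cells. PARP9 had 54.6, 49.2 and 48.0 CPM in the CAL-29 siCtrl libraries and 17.3, 17.8 and 15.8 CPM in the 5637 siCtrl libraries (log2 fold change 1.58 [1.52], SE 0.068, edgeR adjusted p = 5.52e-14) and DTX3L had 181, 167 and 159.7 CPM in the CAL-29 siCtrl libraries and 74.0, 74.9 and 73.7 CPM in the 5637 siCtrl libraries (log2 fold change 1.197 [1.14], SE 0.051, edgeR adjusted p = 5.08e-14). With siKMT9α#1, their log2 fold changes were 0.33 ± 0.059 [0.39] and 0.22 ± 0.052 [0.27] in CAL-29 cells, where both passed 1e-06 without siCtrl replicate 1. In 5637 cells they were -0.023 ± 0.072 and 0.13 ± 0.039.

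**Figure D5:**
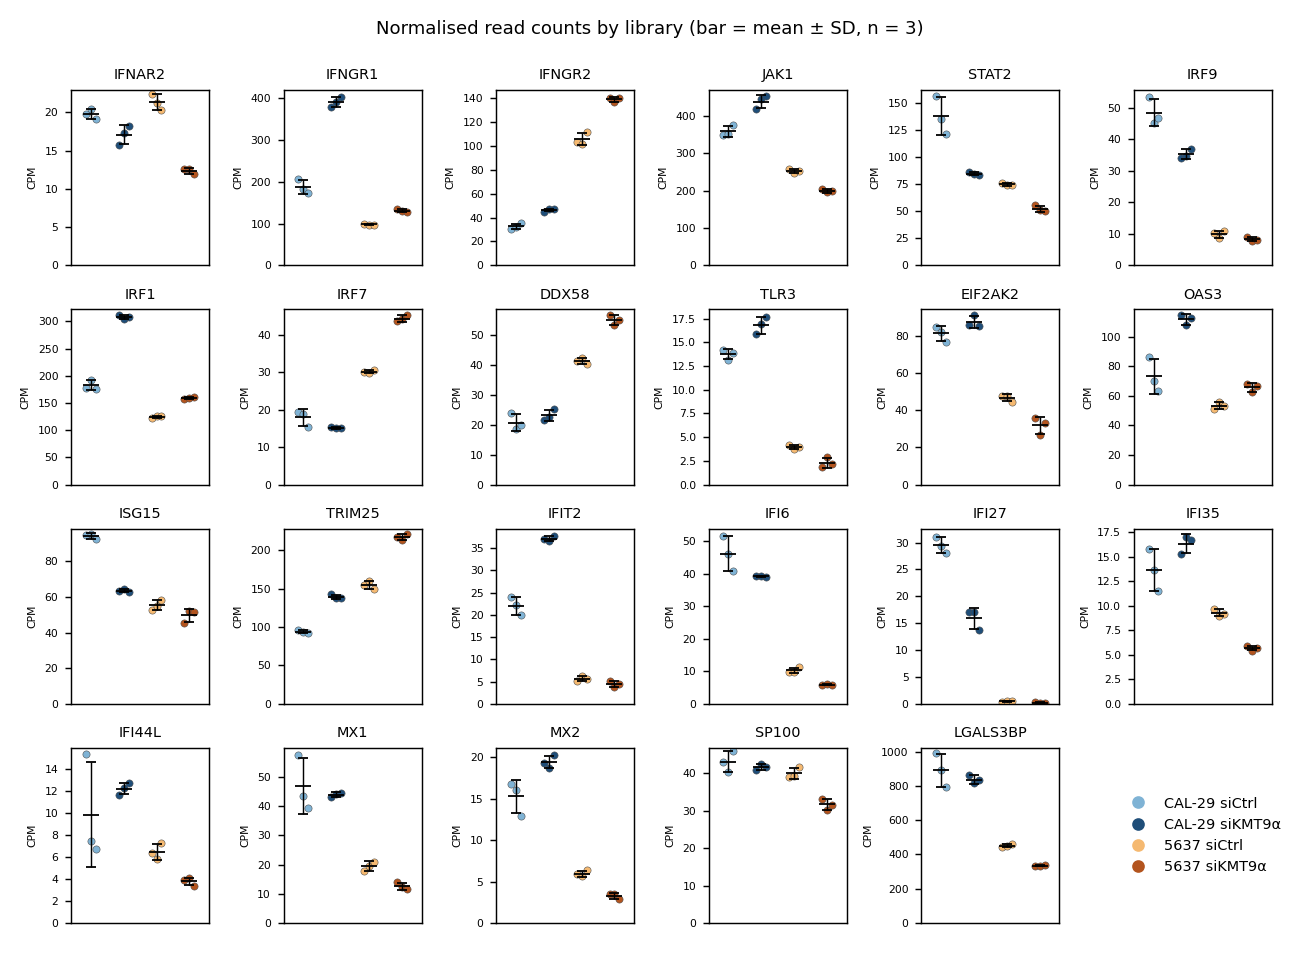
Normalised read counts (CPM, y axis from 0) in each of the 12 libraries for the 23 members called in a knockdown comparison or in the comparison of responses, with mean and SD of 3 libraries per group. IFNGR1, IRF1, OAS3 and TRIM25 rise from siCtrl to siKMT9α#1 in both lines, STAT2 falls in both, and IFI44L shows the wide CAL-29 siCtrl spread.

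Other genes of the pathway, listed by name with earlier results of these data known, add ligands, receptors, adaptors and further targets. Their counts at p below 1e-06 stand against the same shares of all genes as above, 15% up and 15% down in CAL-29 cells, 18% and 17.6% in 5637 cells, 26.6% higher and 28.1% lower at baseline, and 8.62% and 7.11% for the difference in response. The values without CAL-29 siCtrl replicate 1 for these lists were computed after the data had been seen. Losses of a call with any other library left out are given by gene for members alone, and calls of these further genes can lie near the threshold. None of the 13 interferon genes had enough counts to be tested in any comparison with all libraries. IFNA5, IFNA8, IFNA13 and IFNG had 0 counts in all 12 libraries, and 12 of the 13 had fewer than 10 counts in every library, the exception being IFNE, with 10, 16 and 10 counts in the 5637 siCtrl libraries. Summed over the 13, the libraries held 0 to 3 counts with siCtrl and 4 to 16 with siKMT9α#1 in CAL-29 cells, and 12 to 17 and 8 to 16 in 5637 cells. No single ligand could be tested at this depth. IFNB1 had 3, 1 and 0 counts with siCtrl and 1, 1 and 2 with siKMT9α#1 in CAL-29 cells. IFNL1 had 0, 1 and 0 and 6, 3 and 0.

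Of 8 further receptor and JAK-STAT genes, 2 rose and 3 fell in CAL-29 cells among 7 tested, against 15% and 15% of all genes, and 1 rose and 4 fell in 5637 cells among 8 tested, against 18% and 17.6%. IFNLR1, the chain specific to the interferon lambda receptor, fell in both lines, with 22.3, 18.8 and 21.0 CPM with siCtrl and 8.18, 8.36 and 7.38 CPM with siKMT9α#1 in CAL-29 cells (log2 fold change -1.39 [-1.33], SE 0.095, edgeR adjusted p = 4.44e-11) and 40.8, 44.3 and 41.2 CPM with siCtrl and 29.4, 26.6 and 26.8 CPM with siKMT9α#1 in 5637 cells (log2 fold change -0.61, SE 0.055, edgeR adjusted p = 6.56e-11). Its fall was larger in CAL-29 cells (log2 difference -0.76 ± 0.11 [-0.70], edgeR adjusted p = 6.22e-07). IRF5 and STAT3 also fell in both lines, IRF5 by log2 fold changes of -1.06 ± 0.086 [-0.98] and -1.37 ± 0.16 and STAT3 of -0.38 ± 0.046 [-0.39] and -0.56 ± 0.032 in CAL-29 and 5637 cells. STAT6 rose in both, at 0.46 ± 0.048 [0.49] and 0.34 ± 0.036. IRF2 rose in CAL-29 cells (log2 fold change 0.46 [0.45], SE 0.058, edgeR adjusted p = 6.13e-07), and IL10RB fell in 5637 cells (log2 fold change -0.57, SE 0.059, edgeR adjusted p = 9.21e-10). At baseline, 1 of the 8 was higher and 3 were lower in CAL-29 cells, TYK2 among the lower (log2 fold change -1.07 [-1.11], SE 0.055, edgeR adjusted p = 7.77e-13), against 26.6% and 28.1% of all genes. The counts in CAL-29 cells and at baseline were equal without CAL-29 siCtrl replicate 1.

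Of 18 adaptors and kinases of nucleic acid sensing, 3 rose and 2 fell in CAL-29 cells among 17 tested, against 15% and 15% of all genes, and 2 rose and 2 fell in 5637 cells among 15 tested, against 18% and 17.6%. TMEM173, which encodes STING, the adaptor of DNA sensing, rose in both lines, at 0.91 ± 0.13 [0.95] in CAL-29 and 1.73 ± 0.11 in 5637 cells. PRKRA, an activator of PKR, rose at 0.53 ± 0.077 [0.43] and 0.57 ± 0.049. In CAL-29 cells with all libraries, their unadjusted edgeR p-values were close to the threshold, at 6.84e-07 for TMEM173 and 9.99e-07 for PRKRA. TANK fell in both lines, at -0.59 ± 0.059 [-0.62] and -0.52 ± 0.052. TRAF6 fell in CAL-29 cells (log2 fold change -0.61 [-0.61], SE 0.083, edgeR adjusted p = 1.44e-06). The kinase IKBKE rose in CAL-29 cells (log2 fold change 0.47 [0.50], SE 0.065, edgeR adjusted p = 1.62e-06) and fell in 5637 cells (log2 fold change -0.26, SE 0.041, edgeR adjusted p = 1.96e-06), with a difference of 0.75 ± 0.072 [0.78] (edgeR adjusted p = 6.31e-10). At baseline, 2 of the 17 tested were higher and 3 lower in CAL-29 cells. MAVS, the adaptor of RIG-I and MDA5, was higher (log2 fold change 1.23 [1.1999], SE 0.046, edgeR adjusted p = 6.87e-15), and TICAM1, the adaptor of TLR3, was lower (log2 fold change -1.69 [-1.77], SE 0.071, edgeR adjusted p = 3.24e-14), as were IKBKE (-1.46 ± 0.054 [-1.495]) and TRAF3 (-0.69 ± 0.048 [-0.72]). Over all genes 26.6% were higher and 28.1% lower. The counts in CAL-29 cells and at baseline were equal without CAL-29 siCtrl replicate 1.

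The list of 15 negative regulators held 2 genes that rose and 0 that fell in CAL-29 cells (15% and 15% of all genes), against 2 and 2 in 5637 cells (18% and 17.6% of all genes). In CAL-29 cells without siCtrl replicate 1, 4 rose and 1 fell, and SOCS1, PTPN2 and NLRX1 were added. SAMHD1, which depletes nucleotides, rose at 0.94 ± 0.062 [0.996] in CAL-29 and 0.62 ± 0.052 in 5637 cells, and PTPN11 rose at 0.40 ± 0.049 [0.38] and 0.41 ± 0.035. PIAS1 and PTPN6 fell in 5637 cells, at -0.44 ± 0.067 and -0.42 ± 0.06. At baseline 2 were higher and 3 lower in CAL-29 cells, against 26.6% and 28.1% of all genes, with PTPN11 at 0.72 ± 0.048 [0.74], PTPN1 at 0.38 ± 0.046 [0.39], PTPN2 at -0.95 ± 0.063 [-0.99], SOCS1 at -0.84 ± 0.11 [-0.88] and SOCS3 at -0.76 ± 0.062 [-0.74]. With that library left out, 2 were higher and 5 lower, with NLRC5 and TREX1 added.

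Of 50 further interferon-stimulated genes, 16 rose and 6 fell in CAL-29 cells among 47 tested, and 6 rose and 17 fell in 5637 cells among 48 tested, with median log2 fold changes of 0.25 and -0.17. The shares of all genes that rose or fell were 15% and 15% in CAL-29 and 18% and 17.6% in 5637 cells. In CAL-29 cells without siCtrl replicate 1, 19 rose and 7 fell, against 18.8% and 18.1% of all genes, with a median of 0.28. PARP14, IDO1 and SLFN11 were added upward and UBA7 downward. The responses of 17 of 49 tested differed upward and that of 1 downward, against 8.62% and 7.11% of all genes, with a median difference of 0.48. Without that library, 21 differed upward and 1 downward, against 9.85% and 7.99%, with a median of 0.47 and with IFITM1, NMI, PNPT1 and APOL6 added. GBP1, a guanylate-binding protein, fell in both lines, with 219, 226 and 237 CPM with siCtrl and 75.7, 79.8 and 86.7 CPM with siKMT9α#1 in CAL-29 cells (log2 fold change -1.51 [-1.54], SE 0.053, edgeR adjusted p = 9.56e-16) and 75.1, 73.9 and 77.1 CPM with siCtrl and 15.3, 15.1 and 14.97 CPM with siKMT9α#1 in 5637 cells (log2 fold change -2.32, SE 0.051, edgeR adjusted p = 6.33e-25). GBP2 fell likewise, at -0.99 ± 0.06 [-1.002] and -1.48 ± 0.065. GBP4 moved apart, with a rise in CAL-29 cells (log2 fold change 1.21 [1.24], SE 0.06, edgeR adjusted p = 2.28e-13) and a fall in 5637 cells (log2 fold change -0.81, SE 0.079, edgeR adjusted p = 3.08e-10). LAMP3 and IFI30, lysosomal proteins, rose in CAL-29 cells at 1.73 ± 0.056 [1.79] and 1.48 ± 0.072 [1.46], against -0.30 ± 0.059 and 0.37 ± 0.048 in 5637 cells, where IFI30 also passed. IFI16, PLSCR1 and NT5C3A rose in both lines, IFI16 at 0.95 ± 0.057 [0.93] and 0.61 ± 0.037, PLSCR1 at 0.66 ± 0.066 [0.76] and 0.70 ± 0.041, and NT5C3A at 0.41 ± 0.051 [0.42] and 0.70 ± 0.048. IDO1, which breaks down tryptophan, had 31, 30 and 4 counts with siCtrl and 118, 120 and 99 with siKMT9α#1 in CAL-29 cells (log2 fold change 2.15 [2.53], SE 0.33, edgeR adjusted p = 6.37e-06), with an unadjusted p above 1e-06 with all libraries, and its responses differed by 2.80 ± 0.41 [3.18] (edgeR adjusted p = 1.68e-06). DDX60L fell in CAL-29 cells (log2 fold change -0.94 [-0.81], SE 0.081, edgeR adjusted p = 1.84e-09), and CD274, which encodes PD-L1, fell in 5637 cells (log2 fold change -1.37, SE 0.058, edgeR adjusted p = 2.49e-18).

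At baseline, 18 of 49 of these genes were higher and 10 lower in CAL-29 cells, against 26.6% and 28.1% of all genes. Fitted without CAL-29 siCtrl replicate 1, 19 were higher and 12 lower, against 29% and 30.5%, with WARS added upward and PARP10 and PLSCR1 downward. RTP4 was higher, with 25.1, 22.5 and 21.9 CPM in the CAL-29 siCtrl libraries and 0.282, 0.393 and 0.315 CPM in the 5637 siCtrl libraries (log2 fold change 6.13 [6.06], SE 0.16, edgeR adjusted p = 2e-17), as were TDRD7 (2.33 ± 0.072 [2.28]) and GBP3 (1.997 ± 0.053 [2.004]). The IFITM genes, which block viral entry, were lower in CAL-29 cells. IFITM1 had 1.35, 0.495 and 0.737 CPM in the CAL-29 siCtrl libraries and 20.6, 19.4 and 23.3 CPM in the 5637 siCtrl libraries (log2 fold change -4.62 [-5.09], SE 0.18, edgeR adjusted p = 9.74e-15) and IFITM3 had 9.90, 8.76 and 9.06 CPM in the CAL-29 siCtrl libraries and 94.8, 102 and 106 CPM in the 5637 siCtrl libraries (log2 fold change -3.44 [-3.50], SE 0.069, edgeR adjusted p = 6.47e-19). IFITM2 had 0, 0 and 0 counts in the CAL-29 and 98, 104 and 130 in the 5637 siCtrl libraries. These paralogs share sequence, so reads between them cannot be assigned with certainty. Within the interferon-stimulated genes the lines thus did not have 1 order.

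By position, 22 of the 47 members lie within 100 kb of another member in GRCh37, in 9 clusters, so that they share a chromosomal neighbourhood. In the cluster of OAS genes on chromosome 12, OAS3 rose in both lines, whereas OAS1 and OAS2 had log2 fold changes of -0.46 and -0.18 in 5637 cells. In the receptor cluster on chromosome 21, the values in 5637 cells were -0.79 for IFNAR2, -0.05 for IFNAR1 and 0.39 for IFNGR2, so that neighbours had values of both signs.

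The ISRE letters were set beside the responses. Of the 21 members with a match, 1 rose and 2 fell in CAL-29 cells (median log2 fold change 0.17), and 1 rose and 5 fell in 5637 cells among 20 tested (median -0.22). Of the 18 members with a window and without a match, 4 rose and 2 fell in CAL-29 cells (median 0.23), and 5 rose and 4 fell in 5637 cells (median -0.13). The shares of all genes that rose or fell were 15% and 15% in CAL-29 and 18% and 17.6% in 5637 cells. In CAL-29 cells without siCtrl replicate 1, 8 of the 21 with a match rose and 2 fell (median 0.22), and 9 of the 18 without a match rose and 2 fell (median 0.25), against 18.8% and 18.1% of all genes. At baseline, 16 of the 21 with a match were higher and 1 lower in CAL-29 cells, and 10 and 4 of the 18 without, against 26.6% and 28.1% of all genes. These baseline counts were equal without that library, where 29% and 30.5% of all genes passed.

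The study's methods list a single strand of siKMT9α#1, on the assumption above that it is si270. The opposite strand was taken here as the guide. The heptamer ACATTCA pairs with bases 2 to 8 of that guide. It occurs in the longest annotated 3′ UTR of 5 of 47 members (10.6%), JAK2, ADAR, HERC6, IFI44L and CMPK2, against 14.1% of 19029 genes. Of these 5, none was called in CAL-29 cells with all libraries, and ADAR and IFI44L rose without siCtrl replicate 1. IFI44L fell in 5637 cells.

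Several transcripts were listed for 18 members, and for IFIT3, IFI27 and MX1 the transcript with the most counts differed between the lines. DDX58 lies within a gene model that covers 96.6% of its exon bases on the same strand, and a noncoding gene covers 26.6% of those of IFI6. Opposite-strand genes overlap 14.2% of the exon bases of IRF3 and 11.7% of those of IFNGR2. The study's methods state that HOMER counted with its default settings and do not spell out the strand option, so these genes are reported as uncertain.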

How the data were processed

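RNA of the 12 libraries was sequenced by the authors, aligned to hg19 with STAR and counted per RefSeq transcript with HOMER at its default settings, per the labels and the study's methods. The deposited values are estimated counts in steps of 0.5, and the strand option of the counting is not spelled out. The deposited tables also hold the authors' own log2 fold changes, p-values and adjusted p-values, which were not used.
Counts were rounded to whole numbers, 1 transcript per symbol was kept (most counts in the line, or over 12 libraries for levels, baseline and interaction), and 14335 to 15395 genes that passed filterByExpr were fitted with edgeR 4.0.16 (R 4.3.3, limma 3.58.1, TMM, quasi-likelihood F-test, Benjamini-Hochberg over all genes tested). A member was called at an unadjusted p below 1e-06, as in the study. SE is the absolute log2 fold change divided by the square root of F. With 3 against 3 libraries, an exact permutation test of a single value cannot go below 0.1, so none is given. The script was tested on simulated data. Alternatives were RLE and total-count scaling, other filters, DESeq2 1.42.0, a joint model, a replicate block, a 2-fold minimum and leaving out each library.
Members and further lists were chosen with earlier results of these data known. Per-library values are given for called members with a mean of at least 50 counts, and from each further list up to 3 called genes per direction and comparison with the largest log2 fold change. CPM are counts scaled to a common library size with TMM factors. Positions are from GENCODE on GRCh37, promoters from RefSeq on GRCh38.p14. Replicate numbers follow the sample titles. The biological coefficient of variation was 5.09% in CAL-29 and 3.34% in 5637 cells, and no 2 libraries of a group agreed within sampling noise. Some items are not reported here.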

Additional observations from a re-analysis of the deposited data

Results flagged for a closer look

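Responses to siKMT9α#1 that differed between the lines by the test of the difference itself (interaction, p below 1e-06) are given here as the log2 fold change in CAL-29 cells minus that in 5637 cells, followed in square brackets by the value without CAL-29 siCtrl replicate 1. They are given for the 9 members that passed and, from each further list, for up to 3 genes per direction with the largest difference. Among the antiviral and IFIT genes the difference was 1.21 [1.28] (SE 0.16, edgeR adjusted p = 2.22e-07) for MX2 and 1.09 [1.16] (SE 0.14, edgeR adjusted p = 1.59e-07) for IFIT2. Among the sensors and IFI genes it was 1.08 [1.10] (SE 0.17, edgeR adjusted p = 5.67e-06) for TLR3, 0.97 [1.09] (SE 0.15, edgeR adjusted p = 2.12e-06) for IFI35 and 0.66 [0.69] (SE 0.09, edgeR adjusted p = 8.19e-07) for EIF2AK2. Among the receptor and signaling genes it was 0.64 [0.71] (SE 0.07, edgeR adjusted p = 5.27e-09) for IFNGR1, 0.63 [0.61] (SE 0.06, edgeR adjusted p = 5.69e-10) for JAK1 and 0.40 [0.39] (SE 0.06, edgeR adjusted p = 9.49e-07) for IRF1. IRF7 was the member with a negative difference, -0.80 [-0.73] (SE 0.10, edgeR adjusted p = 7.17e-08).
Of the further genes of the pathway, the difference was 2.80 [3.18] (SE 0.41, edgeR adjusted p = 1.68e-06) for IDO1, 2.04 [2.07] (SE 0.10, edgeR adjusted p = 2.89e-16) for GBP4 and 2.04 [2.10] (SE 0.08, edgeR adjusted p = 4.06e-18) for LAMP3. It was 0.75 [0.78] (SE 0.07, edgeR adjusted p = 6.31e-10) for IKBKE, 0.53 [0.52] (SE 0.08, edgeR adjusted p = 2.84e-06) for IL10RB and 0.49 [0.48] (SE 0.08, edgeR adjusted p = 4.86e-06) for IRF2. It was negative for DDX60L and IFNLR1, at -0.79 [-0.67] (SE 0.11, edgeR adjusted p = 7.15e-07) for DDX60L and -0.76 [-0.70] (SE 0.11, edgeR adjusted p = 6.22e-07) for IFNLR1. IDO1 had few counts in CAL-29 siCtrl libraries (31, 30 and 4). Transfection reagent, dose and medium differed with the line, so that their part cannot be told apart from that of the line.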

How the results depend on the processing

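Of the values of single called genes recomputed under the alternatives, 1722 kept direction and side of the threshold, 149 kept direction but not the threshold, and none changed sign. In CAL-29 cells, 6 members were upregulated with all libraries, against 10 with total-count scaling, 16 without a filter, 10 with DESeq2 and 4 to 20 when each library was left out in turn. The 20 arose without CAL-29 siCtrl replicate 1, and 4 were downregulated, or 3 to 4 with a library left out. In 5637 cells, 7 upregulated and 11 downregulated members became 6 to 7 and 7 to 11 with a library left out. At baseline, 30 higher and 6 lower members became 29 to 31 and 5 to 6. For the difference in response, 8 positive members became 15 with total-count scaling, 19 without a filter and 6 to 21 with a library left out, and 1 negative member became 2 without a filter, 2 with DESeq2 and 1 to 2 with a library left out. Over all genes, 4402 of 14673 were called in CAL-29 cells in the main fit and 6182 of 19308 without a filter. For the difference in response these were 2421 of 15395 and 3507 of 19892. The share of all genes was not computed for DESeq2. A minimum of 2-fold left 1 upregulated and 0 downregulated members in CAL-29 cells, 0 and 0 in 5637 cells, 2 lower members at baseline, and 3 positive and 0 negative differences in response. The shares of all genes at these minimum counts were not computed. With a library left out, such shares were computed for CAL-29 siCtrl replicate 1 alone. These member counts are therefore not set apart from all genes. The cause of these shifts was not tested, except that the 2-fold minimum is stricter by construction.
The replicate numbers were shared between groups. Correlations of the deviations of same-numbered libraries were 0.158, 0.030 and 0.061 in CAL-29 and 0.129, -0.012 and -0.004 in 5637 cells. Replicate 1 of siCtrl had correlations of -0.098 and -0.071 with siKMT9α#1 replicates 2 and 3 in CAL-29 cells. In 5637 cells these were -0.061 and -0.074. Between the siCtrl libraries of the lines, same-numbered values were 0.199, 0.040 and 0.071. These values do not settle whether the numbers pair the libraries, and the main fits did not pair them. With the replicate block, 17 members were upregulated in CAL-29 cells in place of 6, and 2 differences in response were negative in place of 1. Over all 14673 genes tested in CAL-29 cells, the block raised the calls from 4402 to 6327, of which 49.8% and 50.2% were upward. For the difference in response it raised them from 2421 to 2857 of 15395 genes. Depth limits the ligands and, in 5637 cells, OASL and BST2, and IFIT1, IFI27, RSAD2 and CMPK2 had a mean below 50 counts there.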
